A study of Mus musculus with 36 samples.

Results

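Scube1, Tcf24, Gldn, Fgd1, Cdh19, Sytl5, Fhl2 and Tubb2a are 8 genes picked for an early rise in mouse livers under repeated carbon tetrachloride (CCl4), 8 of the 32544 gene symbols counted. The choice used their fold changes at months 2 and 6, so those are given here as a description with no test. All 8 were counted and all 8 passed the filter on low counts that left 15338 genes for testing. As a group they were called genes raised throughout CCl4 exposure, but 4 of them (Scube1, Tcf24, Fgd1 and Fhl2) lay above every oil mouse at all 3 months. Of all tested genes, 4.64% did so at month 2, 0.867% at month 6 and 12.1% at month 12. The share that did so at all 3 months was not counted. Nothing is read from the 4, as the genes were picked on months 2 and 6. Gldn lay above every oil mouse at month 2 and overlapped oil mice at months 6 and 12. Cdh19 and Sytl5 overlapped the oil mice at month 2 and stood above all of them at month 6. Tubb2a overlapped the oil mice at every month and had a lower mean under CCl4 at month 2.

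The livers came from male C57BL/6N mice, 8 to 10 weeks old when the study began. In the CCl4 groups, CCl4 at 1 g per kg body weight in olive oil was injected into the abdominal cavity 2 times a week for 2, 6 or 12 months; oil mice were injected with olive oil alone for 2 or 12 months. Livers were taken on day 6 after the final injection, and month 0 control mice have no injection period in the labels (their titles say control, their treatment label says olive oil). Each of the 6 groups held 6 libraries, 1 per replicate number, from whole liver RNA depleted of ribosomal RNA. There was no 6-month oil group, so month 6 CCl4 mice are set against both oil groups averaged on the log scale. As bulk tissue, these samples cannot tell more cells of a type from more RNA per cell. The labels do not state that replicates are separate animals beyond their numbers, and p-values measure the spread between these libraries.

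CCl4 is turned into a reactive radical by cytochrome P450 in the hepatocytes around the central vein, which die and are replaced. Repeated dosing is a standard model of liver fibrosis, in which macrophages gather and stellate cells turn into matrix-making myofibroblasts. The 8 genes have unlike known roles. Scube1 encodes a secreted and surface-bound glycoprotein with epidermal growth factor-like repeats, and Gldn encodes gliomedin, an olfactomedin-domain protein by which Schwann cells gather sodium channels at the nodes of Ranvier. Cdh19 is a type II cadherin best known from Schwann cells and their precursors. Fgd1 encodes an exchange factor that activates the small GTPase CDC42. Sytl5 encodes a synaptotagmin-like protein that binds RAB27 on vesicles. Fhl2 is a LIM-domain cofactor of the actin-responsive factor SRF, Tcf24 belongs to the basic helix-loop-helix family of transcription factors, and Tubb2a encodes a beta tubulin, a building block of microtubules.

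Promoter sequences were found for 6 of the 8 genes, 7 promoters in all, since Fhl2 has both an upstream and a downstream start; Tcf24 and Cdh19 had no entry. Each holds 250 bases before and 50 bases after the RefSeq start site on build GRCm38.p6, written 5′ to 3′ on the gene's strand. Scube1 and Fhl2 are shown because their levels ran closest together among the 8, Gldn because it reached the highest fold change over month 0, and Tubb2a because its levels ran apart from the rest. Capitals mark matches, on either strand, to 8 motifs named after the sequences.

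Scube1 (chr15:83724990-83725289, minus strand): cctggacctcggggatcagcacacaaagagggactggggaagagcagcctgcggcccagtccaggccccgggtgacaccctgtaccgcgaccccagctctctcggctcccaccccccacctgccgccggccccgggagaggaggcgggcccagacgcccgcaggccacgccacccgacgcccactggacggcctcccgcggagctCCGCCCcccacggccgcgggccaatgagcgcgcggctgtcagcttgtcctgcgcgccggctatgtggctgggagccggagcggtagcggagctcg
Fhl2 upstream start (chr1:43196712-43197011, minus strand): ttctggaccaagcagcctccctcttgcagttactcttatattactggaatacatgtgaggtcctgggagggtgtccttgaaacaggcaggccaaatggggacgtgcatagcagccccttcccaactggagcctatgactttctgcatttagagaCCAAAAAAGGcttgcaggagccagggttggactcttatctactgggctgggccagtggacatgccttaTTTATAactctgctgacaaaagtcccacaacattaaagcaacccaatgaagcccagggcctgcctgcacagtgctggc
Fhl2 downstream start (chr1:43163912-43164211, minus strand): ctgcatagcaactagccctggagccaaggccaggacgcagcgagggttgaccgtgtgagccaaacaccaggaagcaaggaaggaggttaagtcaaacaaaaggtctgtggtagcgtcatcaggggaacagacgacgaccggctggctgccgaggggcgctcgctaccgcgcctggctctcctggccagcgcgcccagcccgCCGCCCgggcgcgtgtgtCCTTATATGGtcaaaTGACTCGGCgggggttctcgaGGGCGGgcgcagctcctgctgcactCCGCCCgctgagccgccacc
Gldn (chr9:54286236-54286535, plus strand): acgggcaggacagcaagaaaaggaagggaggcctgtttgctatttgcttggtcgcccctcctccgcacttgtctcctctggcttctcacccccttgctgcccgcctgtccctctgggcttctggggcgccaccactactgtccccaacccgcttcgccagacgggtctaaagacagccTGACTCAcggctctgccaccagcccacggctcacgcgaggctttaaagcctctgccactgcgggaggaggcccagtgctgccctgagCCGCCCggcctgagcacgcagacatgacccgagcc
Tubb2a (chr13:34077959-34078258, minus strand): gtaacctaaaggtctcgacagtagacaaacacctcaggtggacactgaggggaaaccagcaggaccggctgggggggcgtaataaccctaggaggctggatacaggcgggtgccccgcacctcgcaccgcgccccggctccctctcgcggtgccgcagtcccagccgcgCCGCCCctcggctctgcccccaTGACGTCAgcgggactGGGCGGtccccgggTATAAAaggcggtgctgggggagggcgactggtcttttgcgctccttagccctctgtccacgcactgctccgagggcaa

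The CArG box, the motif of SRF, was matched in 2 of the 7 promoters, both of Fhl2, with its first base at -96 from the upstream start and at -31 from the downstream start. Of all 32851 promoters of the same length, 1.63% hold a CArG box. An AP-1 site (TGANTCA) was matched in 1 of the 7, in Gldn at -72, against 7.81% of all promoters. The cAMP response element (TGACGTCA) was matched in Tubb2a alone, at -59, against 1.79% of all promoters. A TATA box (TATAAA) lay at -29 in Tubb2a and, on the opposite strand (TTTATA), at -28 before the upstream Fhl2 start. Of all promoters, 13.6% hold one on either strand. GC boxes (GGGCGG) were found in 5 of the 7, against 35.7%. The antioxidant response element (TGACNNNGC, 12.4% of all promoters) was matched at the downstream Fhl2 start alone, at -16. Neither the TEAD site (GGAATG, 14.7%) nor the STAT5 site (TTCNNNGAA, 8.3%) was matched in any of the 7. The AP-1 and antioxidant patterns can share letters, but no match overlapped another in these windows. GC content was 75% in Scube1, 65% in Gldn, 72.7% in Fgd1, 67% in Tubb2a and 66% at the downstream Fhl2 start, but 51.3% at the upstream Fhl2 start and 37% in Sytl5, around a median of 52.7% over all promoters. These matches describe letters only. Gene-level counts do not tell which Fhl2 start was used.

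Library totals lay between 19403247 and 28917545 counts, and no pair of replicates was alike enough to be one library deposited again. Levels are in CPM, which are counts divided by library sizes that were first adjusted by TMM. Transcripts of other tissues varied between libraries of every group: the summed level of 6 pancreatic markers ranged from 0.548 to 17701 CPM. Month 2 CCl4 replicate 1 held the highest erythroid (1903 CPM) and neutrophil (201 CPM) sums, month 2 CCl4 replicate 6 the highest intestinal sum (368 CPM) and month 12 oil replicate 2 the highest mesothelial sum (117 CPM). Without these 3 libraries and month 2 oil replicate 2, the numbers of the 8 genes that lay above every mouse of the other group were the same in each of the 4 comparisons below. Hepatocyte markers were high in every group, with summed levels between 46857 and 101834 CPM.

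Across the 8 genes, 5 lay above every oil mouse at month 2, where 4.64% of all tested genes did, and 6 at month 6, where 0.867% did. Nothing is read from those shares, as the genes were picked on these comparisons. At month 12 against month 12 oil, 6 of the 8 lay above every oil mouse (12.1% of all genes) and 7 of the 8 were called higher (25.9% of all genes), by edgeR's quasi-likelihood test with p-values adjusted over all genes tested and a threshold of 0.05. Against month 0 controls, 7 lay above every control (14.2% of all genes) and 7 were called higher (27.9%). The median log2 fold change of the 8 was 1.98 at month 2, 2.48 at month 6, 3.33 at month 12 and 3.45 at month 12 against month 0; that of all tested genes was 0.00, 0.00, 0.01 and 0.01. The month 12 test is no independent evidence of the rise, since its oil mice are part of the month 6 comparison and the genes were picked with month 12 results in view. The comparison with month 0 shares no mouse with months 2 and 6. It uses the same month 12 CCl4 mice, whose results were in view, so it is no independent evidence either. Its groups also differ in age and in oil as well as in CCl4.

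**Figure D1:**
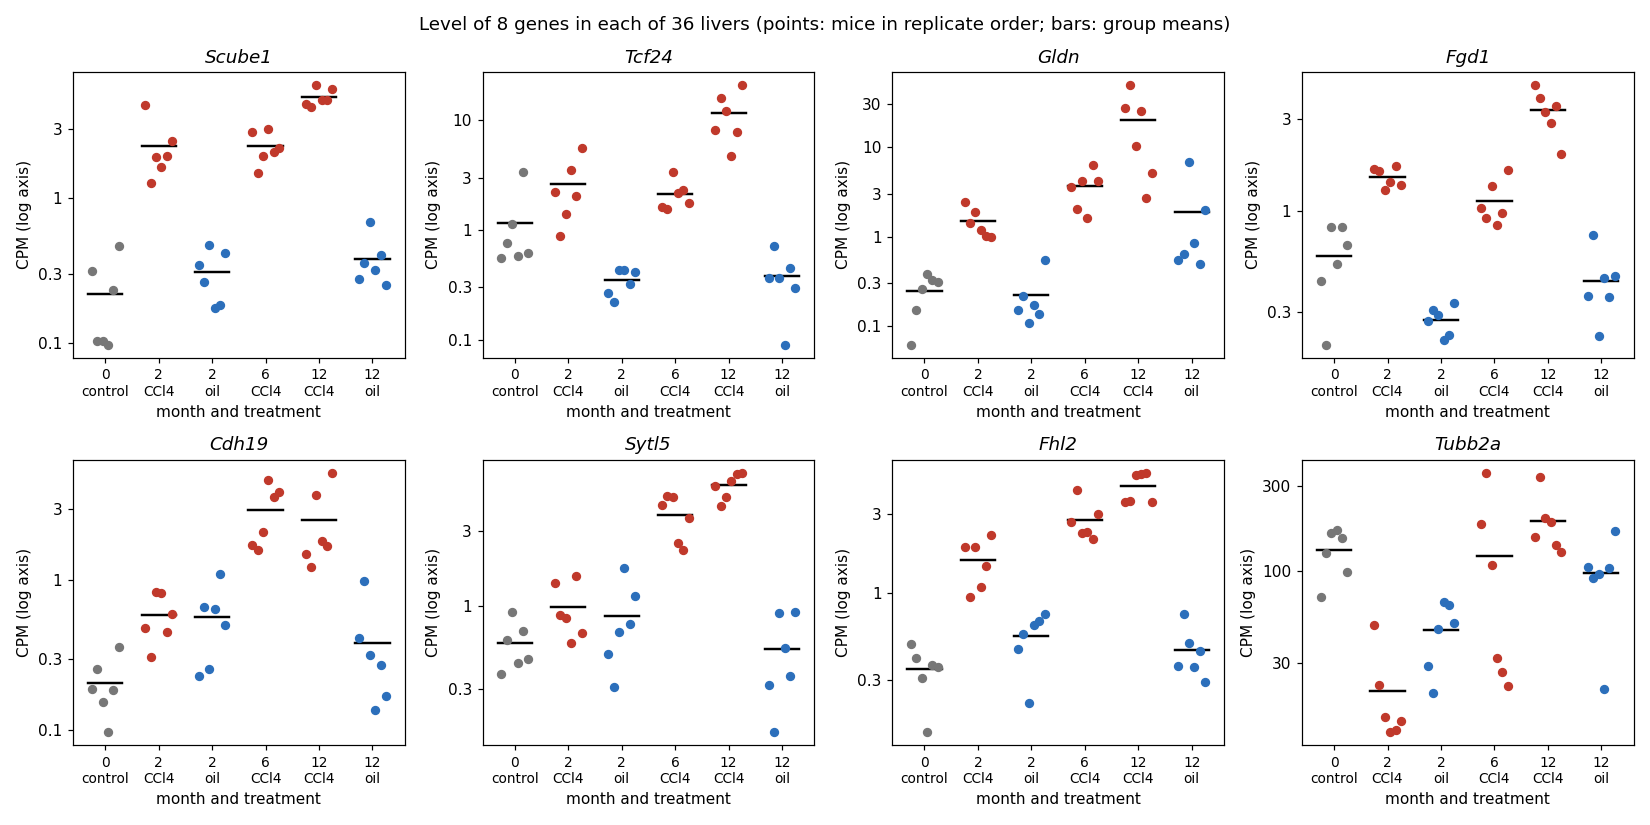
Level of each of the 8 genes (CPM, log axis) in each of the 36 livers, by month and treatment; each point is a mouse and each bar the mean of 6. Scube1, with 1.26 to 4.39 CPM at month 2 under CCl4 and 0.172 to 0.473 CPM in month 2 oil mice, is clear of oil at every month, while Tubb2a overlaps oil at every month.

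Scube1, the secreted protein gene, lies on mm10 at chr15:83604999-83725021 on the minus strand. At month 2 it lay between 1.26 and 4.39 CPM in CCl4 livers (median 1.92) and between 0.172 and 0.473 CPM in oil livers (median 0.305). Month 6 CCl4 livers held 1.49 to 3.00 CPM (median 2.16). Month 12 values lay between 4.26 and 6.05 CPM in CCl4 livers (median 4.74) and between 0.252 and 0.680 CPM in oil livers (median 0.336). No CCl4 liver overlapped an oil liver or a month 0 control, of which the highest had 0.465 CPM. Its log2 fold change was 2.84 (SE 0.31) at month 2 and 2.70 (SE 0.25) at month 6, and at month 12 it was 3.70 (SE 0.31, adjusted p = 2.36e-11). By group mean the order was month 12 CCl4, month 2 CCl4, month 6 CCl4, month 12 oil, month 2 oil and month 0, and the only neighbours whose mice did not overlap were month 6 CCl4 and month 12 oil. The levels at months 2 and 6 of CCl4 were nearly the same, at 2.27 ± 1.11 and 2.27 ± 0.569 CPM (SD, n = 6 each). Counts behind the low levels were few: 25 in all 6 month 0 libraries together, against 889 in the 6 month 12 CCl4 libraries.

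Fhl2, the LIM-domain cofactor (chr1:43123074-43196984, minus strand), ran closest to Scube1, and the CArG boxes shown above are in its promoters. It lay between 0.957 and 2.24 CPM in month 2 CCl4 livers (median 1.68) and between 0.218 and 0.751 CPM in month 2 oil livers (median 0.609). After 6 months of CCl4 it held 2.13 to 4.22 CPM (median 2.52). By month 12 the range was between 3.54 and 5.35 CPM in CCl4 livers (median 4.39) and between 0.294 and 0.752 CPM in oil livers (median 0.408). All 18 CCl4 livers were thus above all 12 oil livers, and above the month 0 controls (0.145 to 0.499 CPM). Its log2 fold change was the smallest of the 5 early genes at month 2, at 1.52 (SE 0.26), then 2.46 (SE 0.21) at month 6 and 3.26 (SE 0.27, adjusted p = 1.39e-11) at month 12. Its CCl4 group means stood in order of time, 1.59 ± 0.505, 2.78 ± 0.771 and 4.41 ± 0.917 CPM at months 2, 6 and 12 (SD, n = 6 each), with neighbouring groups overlapping.

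Fgd1, the CDC42 activator (chrX:151046150-151089521, plus strand), had the tightest early values. Month 2 CCl4 livers lay between 1.29 and 1.72 CPM (median 1.51) and month 2 oil livers between 0.215 and 0.334 CPM (median 0.280). After 6 months of CCl4 it held 0.852 to 1.63 CPM (median 1.01). By month 12 Fgd1 lay between 1.98 and 4.51 CPM in CCl4 livers (median 3.39) and between 0.227 and 0.752 CPM in oil livers (median 0.408). The groups did not overlap at any month, and the lowest CCl4 liver of all, at month 6, stood just above the highest month 0 control (0.833 CPM). The log2 fold change was 2.43 (SE 0.26) at month 2, 1.69 (SE 0.21) at month 6 and 2.91 (SE 0.25, adjusted p = 4.38e-11) at month 12. Month 12 CCl4 livers did not overlap those of month 2 or month 6. Between month 2 oil livers and month 0 controls the log2 difference was -1.08 (SE 0.28, overlapping, no test). The last 2428 bases of Fgd1 overlap Tsr2 on the opposite strand. Tsr2 was not called at any month (log2 fold changes -0.20, -0.04 and -0.02), and whether strand was used in the counting is not stated in the labels. The same limit holds for Gldn, whose gene body (introns included) overlaps the antisense gene Gldnos by 15085 bases, for Tcf24, which shares 619 bases with a gene model on the opposite strand, and for Fhl2, which holds a pseudogene of 483 bases on the opposite strand. Within Cdh19 lie 2 gene models on its own strand.

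Tcf24, the helix-loop-helix gene, varied more from mouse to mouse. It lay between 0.889 and 5.55 CPM in month 2 CCl4 livers (median 2.12) and between 0.220 and 0.436 CPM in month 2 oil livers (median 0.368). Month 6 CCl4 livers held 1.55 to 3.33 CPM (median 1.96). At month 12 it lay between 4.74 and 20.9 CPM in CCl4 livers (median 10.2) and between 0.0903 and 0.713 CPM in oil livers (median 0.364). CCl4 and oil livers did not overlap at any month. Month 0 controls, at 0.561 to 3.33 CPM, overlapped the CCl4 livers of months 2 and 6, and 1 control (replicate 5) held the 3.33 CPM. That control also had the highest cholangiocyte marker sum of its group (415 CPM, median 110 CPM), as did the month 12 CCl4 liver with the highest Tcf24 level (replicate 6, 1094 CPM). In every other group the liver with the highest sum was not the one with the highest Tcf24 level. In month 6 CCl4 livers it had the lowest (replicate 2, 303 CPM). The part of those cells was not tested. Month 2 oil livers lay below every month 0 control (log2 difference -1.74, SE 0.49, no test). The log2 fold change over oil was 2.87 (SE 0.47) at month 2, 2.52 (SE 0.38) at month 6 and 4.90 (SE 0.48, adjusted p = 6.40e-10) at month 12, the highest of the 8 at that month. Over month 0 controls it was 3.29 (SE 0.43, adjusted p = 1.31e-07).

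Gldn, the gliomedin gene (chr9:54286486-54341786, plus strand), spread widely among month 12 CCl4 livers. At month 2 it lay between 0.999 and 2.42 CPM in CCl4 livers (median 1.29) and between 0.109 and 0.543 CPM in oil livers (median 0.163). Month 6 CCl4 livers held 1.59 to 6.25 CPM (median 3.90). By month 12 Gldn lay between 2.66 and 49.0 CPM in CCl4 livers (median 17.4) and between 0.496 and 6.76 CPM in oil livers (median 0.746). Oil replicate 3 of month 12, with 6.76 CPM, overlapped the CCl4 livers of months 6 and 12, and oil replicate 6, with 1.97 CPM, those of month 6 alone. Fitted log2 fold changes were 2.72 (SE 0.73) at month 2, 2.49 (SE 0.51) at month 6 and 3.40 (SE 0.58, adjusted p = 1.05e-05) at month 12. The oil groups themselves differed by 3.05 on the log2 scale, month 12 over month 2 (SE 0.72, no test), so the month 6 value was 4.02 against month 2 oil alone and 0.96 against month 12 oil alone. Against month 0 controls (0.0623 to 0.387 CPM) every month 12 CCl4 liver was higher, with a log2 fold change of 6.25 (SE 0.72, adjusted p = 1.18e-08).

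Cdh19, the type II cadherin (chr1:110888326-110977584, minus strand), overlapped oil at month 2. Its levels were 0.308 to 0.839 CPM in CCl4 livers (median 0.542) and 0.231 to 1.10 CPM in oil livers (median 0.573) at that month. CCl4 livers of month 6 held 1.58 to 4.63 CPM (median 2.83), above every oil liver. By month 12 Cdh19 lay between 1.23 and 5.21 CPM in CCl4 livers (median 1.76) and between 0.135 and 0.990 CPM in oil livers (median 0.294), again without overlap. The log2 fold change was 0.06 (SE 0.43) at month 2, rank 6113 of 15338 genes, where leaving out single libraries moved it between -0.10 and 0.36. It was 2.64 (SE 0.34) at month 6 and 2.69 (SE 0.43, adjusted p = 5.12e-06) at month 12. Cdh19 was the one gene of the 8 whose highest group mean was at month 6, 2.91 ± 1.28 CPM, but month 12 CCl4 (2.52 ± 1.58 CPM, SD, n = 6 each) overlapped it. Month 6 lay 2.31 (SE 0.41) above month 2 on the log2 scale among CCl4 livers, with no overlap and no test.

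Sytl5, the vesicle-tethering gene (chrX:9885622-9994543, plus strand), had the same late pattern. At month 2 its levels were 0.587 to 1.57 CPM in CCl4 livers (median 0.864) and 0.308 to 1.76 CPM in oil livers (median 0.733). CCl4 livers of month 6 held 2.29 to 5.02 CPM (median 4.04), clear of all oil livers. At month 12 it lay between 4.36 and 7.08 CPM in CCl4 livers (median 6.02) and between 0.158 and 0.924 CPM in oil livers (median 0.451). The log2 fold change was 0.20 (SE 0.34) at month 2, 2.48 (SE 0.27) at month 6 and 3.45 (SE 0.36, adjusted p = 1.65e-09) at month 12. At month 2 the sign depended on the setting, with values from -0.03 to 0.53 over the alternatives. Among CCl4 livers month 6 stood 1.93 (SE 0.33) above month 2 on the log2 scale without overlap, and month 12 stood 0.63 (SE 0.31) above month 6 with overlap.

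Tubb2a, the beta tubulin (chr13:34074274-34078007, minus strand), went against the description of the set. It was the one abundant gene: per kilobase of exon its mean in month 12 CCl4 livers was 119 CPM, while the other 7 lay between 0.508 (Scube1) and 4.25 (Gldn) CPM per kilobase. At month 2 its levels were 12.2 to 49.3 CPM in CCl4 livers (median 14.5) and 20.4 to 66.9 CPM in oil livers (median 48.7). At month 6 the CCl4 livers held 22.3 to 357 CPM (median 69.6), with replicates 1, 2 and 3 at 184, 357 and 107 CPM and replicates 4, 5 and 6 at 31.9, 26.9 and 22.3 CPM. Month 12 levels were 128 to 337 CPM in CCl4 livers (median 172) and 21.5 to 168 CPM in oil livers (median 99.5). CCl4 and oil livers overlapped at each month. Fitted log2 fold changes were -1.14 (SE 0.51) at month 2, rank 15102 of 15338, and 0.86 (SE 0.42) at month 6, which became 0.15 without CCl4 replicate 2. At month 12 it was 0.97 (SE 0.50, adjusted p = 0.110) and did not pass the test. It passed when only the month 12 groups were fitted (0.99, adjusted p = 0.0432) or with library totals alone (1.50, adjusted p = 0.0107); over all alternatives its adjusted p ranged from 0.0107 to 0.24. Against month 0 controls, which held 71.0 to 170 CPM, month 12 CCl4 livers differed by 0.56 (SE 0.50, adjusted p = 0.361). Month 2 oil livers themselves lay below every month 0 control (log2 difference -1.49, SE 0.51, no test). Of the 100-base windows of Tubb2a, 36.9% are shared with Tubb2b or Tubb2a-ps2, so reads from these genes could have been split between them; the other 7 genes share none.

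**Figure D2:**
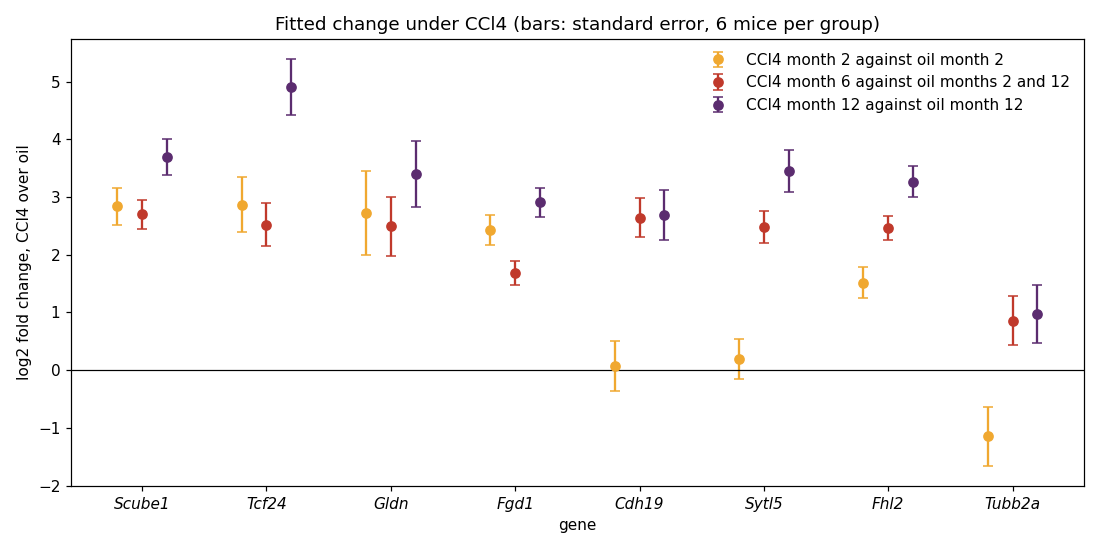
Fitted log2 fold change of each gene under CCl4 at months 2, 6 and 12 over oil, with bars for the standard error (6 mice per CCl4 group). Cdh19 (0.06) and Sytl5 (0.20) sit near 0 at month 2 and above 2 later, and Tubb2a is below 0 at month 2 (-1.14).

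The genes thus followed unlike courses over the 3 CCl4 months. Scube1, Tcf24 and Fgd1 had their first step by month 2, differed little between months 2 and 6 (log2 differences 0.00, -0.28 and -0.41, month 6 over month 2) and stood higher again at month 12 (1.14, 2.45 and 1.55 over month 6). None of the 3 overlapped between months 12 and 6. Gldn stood 1.30 (SE 0.56) higher at month 6 than at month 2, and 2.44 (SE 0.54) higher at month 12 than at month 6. These differences share mice with the comparisons on which the genes were picked and carry no test. Between genes, likeness was measured as the root mean square difference of log2 CPM over the 36 mice, each gene centred on its mean in the 12 oil mice. The most alike pair was Scube1 and Fhl2 at 0.775, and the least alike was Tcf24 and Tubb2a at 2.59. No liver was the highest or the lowest of its group for all 8 genes: month 12 oil replicate 2 was the highest of its group for 4 of the 8 (Tcf24, Fgd1, Cdh19, Fhl2), and month 6 CCl4 replicate 2 was the highest for 3 (Sytl5, Fhl2, Tubb2a) and the lowest for 3 (Scube1, Tcf24, Cdh19). Month 12 oil replicate 2 also had the highest Schwann cell (26.8 CPM) and fibroblast (1143 CPM) marker sums of its group. Month 6 CCl4 replicate 2 had the highest Schwann cell (24.6 CPM), fibroblast (1318 CPM), mesothelial (96.8 CPM), cholangiocyte (303 CPM), macrophage (295 CPM) and neutrophil (93.2 CPM) sums of its group. The part of other cells in the values of these 2 livers was not tested.

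The genes most alike to each, of 12319 compared, were found by the same measure. They were chosen on their levels in these same mice, so their ranges and fold changes here and in the next paragraph are a description with no test. Fbn2, which encodes a fibrillin of the elastic matrix, was nearest to Scube1 (0.831) and second to Gldn (1.28). Its levels were 0.509 to 1.05 CPM in month 2 CCl4 livers and 0.0440 to 0.192 CPM in month 2 oil livers, and 1.77 to 4.09 CPM in month 12 CCl4 livers against 0.0456 to 0.420 CPM in month 12 oil livers. Gldn was nearest to Lrtm2 (1.22), a leucine-rich repeat membrane protein. Cd63, a tetraspanin of late endosomes and exosomes, was nearest to Fhl2 (0.676) and second for both Scube1 (1.01) and Sytl5 (0.885). Cd63 held 48.2 to 79.3 CPM in month 12 CCl4 livers and 4.88 to 12.7 CPM in month 12 oil livers. Col4a5, a chain of basement membrane collagen, was second to Fhl2 (0.702) and to Fgd1 (0.643). Sytl5 was nearest to Peg10 (0.835), an imprinted gene derived from a retrotransposon, and Cdh19 to Ctsk (0.858), the lysosomal protease cathepsin K, with the matrix protein gene Sparcl1 next (0.862).

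Fgd1 was nearest to Pak1 (0.621), the kinase that is itself switched on by CDC42. Pak1 lay between 4.19 and 6.95 CPM in month 2 CCl4 livers and between 1.88 and 2.46 CPM in month 2 oil livers. Month 12 levels of Pak1 lay between 12.4 and 17.8 CPM in CCl4 livers and between 1.86 and 3.29 CPM in oil livers. Neither pair of groups overlapped. Of all tested genes, 4.64% lay above every oil mouse in this way at month 2 and 12.1% at month 12. Tcf24 was nearest to Ppp1r42 (0.872), and the small GTPase gene Rasl10b was next (1.02). Ppp1r42 is also its neighbour on the genome: on mm10, Tcf24 lies at chr1:9960163-9967932 and Ppp1r42 at chr1:9968624-10009136, both on the minus strand and 692 bases apart. Ppp1r42 held 2.87 to 17.7 CPM in month 12 CCl4 livers and 0 to 0.135 CPM in month 12 oil livers (log2 fold change 6.91, SE 0.69). Its 7 counts over the 6 oil libraries leave that fold imprecise. The share of its reads that could come from one transcript with Tcf24 was not tested. Tubb2a was nearest to Chka (0.653), the kinase that starts phosphatidylcholine synthesis. Chka too was split among month 6 CCl4 livers, between 11.6 and 168 CPM.

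**Figure D3:**
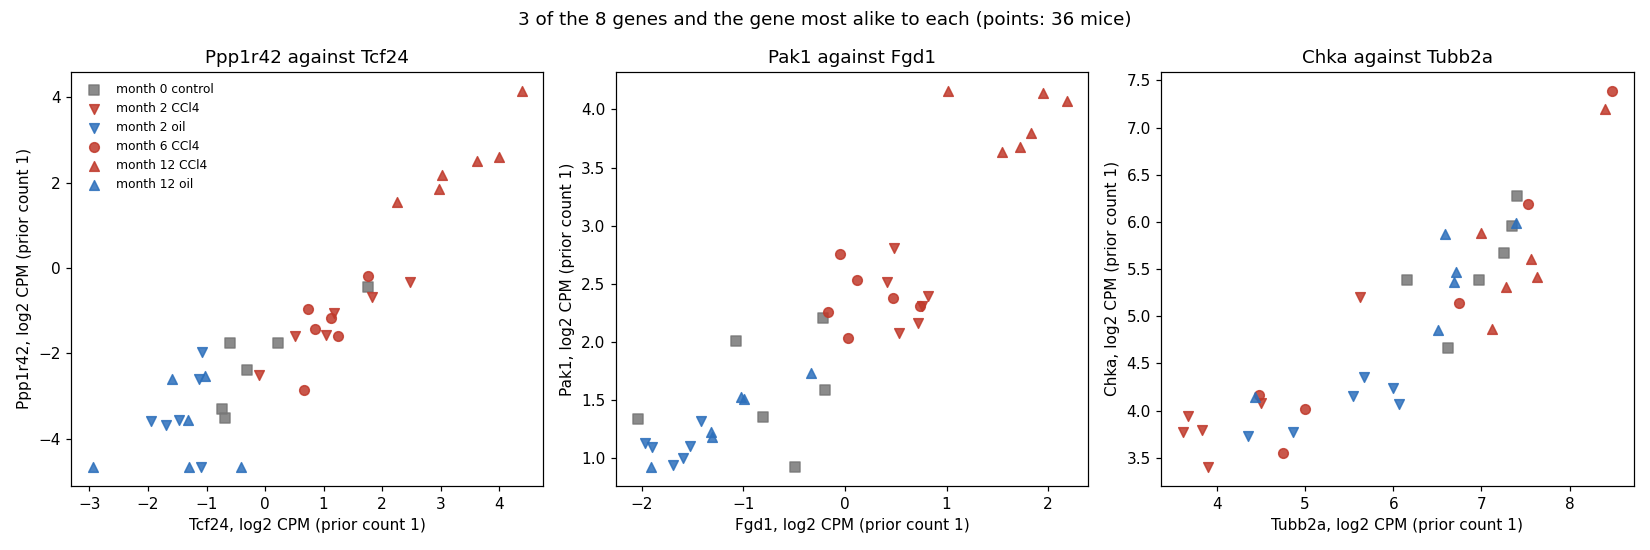
Log2 CPM (prior count 1) of Ppp1r42 against Tcf24, Pak1 against Fgd1 and Chka against Tubb2a in the 36 livers; colours and shapes mark the 6 groups. Month 12 CCl4 livers form the top right of the first 2 panels, whereas CCl4 and oil livers are mixed along the Tubb2a panel.

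Relatives and partners of the 8 genes were read from lists that leave out the 8 themselves. Of all tested genes, 10.4% were called in either direction at month 2 and 11.4% at month 6, and 25.9% were called higher and 23.2% lower at month 12. The shares at months 2 and 6 hold both directions, so those called higher alone were smaller (the split at month 2 is given in the last section). Scaling matters for the calls below. With library totals alone, in place of TMM, the median of all genes is 0.20, 0.31 and 0.56 (log2) at months 2, 6 and 12. More genes are then called higher, also in lists said below to have none at months 2 and 6, such as beta tubulins (1 and 3). Scube3, the one tested relative of Scube1, was not called at month 2 (-0.04, SE 0.42) or month 6 (0.86, SE 0.35) and rose by 5.49 (SE 0.41, adjusted p = 1.79e-12) at month 12, a 45.0-fold difference over a mean of 0.307 CPM in oil livers. SCUBE proteins are known to help release hedgehog ligands. Of 11 tested hedgehog pathway genes none was called higher at months 2 and 6 and 2 at month 12. With library totals alone 1, 3 and 5 of them were called higher at months 2, 6 and 12. Hhip, the secreted inhibitor of hedgehog ligands, fell at each month, with log2 fold changes of -1.04, -2.83 and -7.37 at months 2, 6 and 12 (adjusted p = 0.000915, 2.69e-11 and 6.05e-18) and was the 1 gene called lower at months 2 and 6; 4 were called lower at month 12, of which Ptch1 and Cdon were not called with library totals alone.

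For Fgd1, 2 of 5 relatives rose at month 2, 1 at month 6 and 2 at month 12, and 1 fell at month 12. Fgd3 rose at each month (0.83, 0.75 and 1.89), and Fgd2 at months 2 and 12 (0.53 and 0.91). Fgd4 fell by 0.45 at month 12, a call lost with library totals alone, where its value was 0.09. In the CDC42 pathway 4 of 14 genes rose at month 2, 4 at month 6 and 8 at month 12. Pak1 is among them at each month. It was also picked out above for its likeness to Fgd1 in these mice, so its part in these counts is a description. Pak1 (1.31, 1.16 and 2.57), the scaffold gene Iqgap1 (0.77, 0.75 and 0.99) and Was (0.83, 0.62 and 1.05), an actin nucleation promoter of blood cells, rose at each of the 3 months. Wasl, the broadly expressed relative of Was, fell by 0.40 at month 12, but not with library totals alone (0.13).

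For Fhl2, neither tested relative was called at months 2 and 6, and Fhl3 rose by 2.57 (SE 0.46, adjusted p = 2.55e-05) at month 12, while Fhl1 had -0.13 (SE 0.26). Targets of SRF and YAP, factors that respond to the state of the cytoskeleton, were called higher for 2, 1 and 6 of 15 genes at months 2, 6 and 12, and none was called lower. For Sytl5, 1, 1 and 2 of 4 relatives rose at months 2, 6 and 12, and 1 fell at month 12. Sytl2 rose at every month (1.26, 1.20 and 1.07), Sytl3 rose at month 12 (1.41) and Sytl4 fell by 0.64 at month 12, a call lost with library totals alone. Of 9 RAB27 partners, 1 rose at month 2, 1 at month 6 and 5 at month 12, among them Rab27a (0.99) and Rab3d (1.27). Exph5, another RAB27 effector, fell at month 6 (-0.60) and at month 12 (-1.54); the first call was lost with library totals alone, and the second was kept.

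For Gldn, 2, 2 and 3 of 8 olfactomedin-domain genes rose at months 2, 6 and 12, and 2 fell at month 12. Olfml3 rose at each month (1.33, 0.91 and 1.10), and Olfm2 rose by 2.43 at month 12. Both genes that fell, Olfm1 and Olfml1, lost their call with library totals alone. Among 5 tested partners at the node of Ranvier none was called at month 2, 2 rose at months 6 and 12, and 1 fell at month 12. The sodium channel gene Scn8a rose by 1.62 at month 6 and 4.12 at month 12 (adjusted p = 2.51e-10), and Cntnap1 by 0.82 and 1.82. Nfasc, to whose protein gliomedin binds, fell by 0.68 at month 12, but not with library totals alone (-0.16, adjusted p = 0.637). For Cdh19, none of 4 tested type II cadherins was called at months 2 and 6; at month 12 Cdh6 rose by 2.51, and Cdh10 fell by 1.02, a call lost with library totals alone. Of 9 catenins and classical cadherins none was called at month 2, 1 was higher and 1 lower at month 6, and 5 were higher and 2 lower at month 12. With library totals alone 8 were higher at month 12, Ctnnb1 turned to higher (0.33, against -0.22), and the lower call of Cdh2 was lost at month 6 and kept at month 12. For Tcf24, 1, 1 and 3 of 9 helix-loop-helix relatives and their inhibitors rose at months 2, 6 and 12, and 3 fell at month 12. Tcf21, a factor of stellate cells and fibroblasts, rose at each month (0.69, 0.56 and 0.66). Id2 (-0.93) and Id3 (-0.89), inhibitors of such factors, fell at month 12, calls lost with library totals alone, and Tcf12 (-0.20) then turned to higher (0.34).

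For Tubb2a, none of 6 other beta tubulins rose at months 2 and 6, and 5 rose at month 12. Tubb4b, a broadly expressed beta tubulin, fell by 1.02 at month 2 (SE 0.22, adjusted p = 0.00271), beside the lower mean of Tubb2a at that month. At month 12 Tubb2b had 3.30 (adjusted p = 1.77e-05), Tubb3 2.25, Tubb6 1.20, Tubb5 0.79 and Tubb4b 0.53, of which Tubb4b was not called with RLE size factors (adjusted p = 0.0551). Of 5 alpha tubulins, Tuba4a fell by 0.97 at month 2, Tuba8 rose by 1.32 at month 6, and 3 rose at month 12 (Tuba8 2.30, Tuba1a 1.03 and Tuba1b 0.87). Among 10 tubulin folding and severing genes none was called at month 2 or 6, and at month 12 3 were higher and 1 lower. With library totals alone 5 were higher at month 6 and all 10 at month 12, Katna1, the 1 lower gene, among them (-0.30, and 0.25 with library totals alone).

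**Figure D4:**
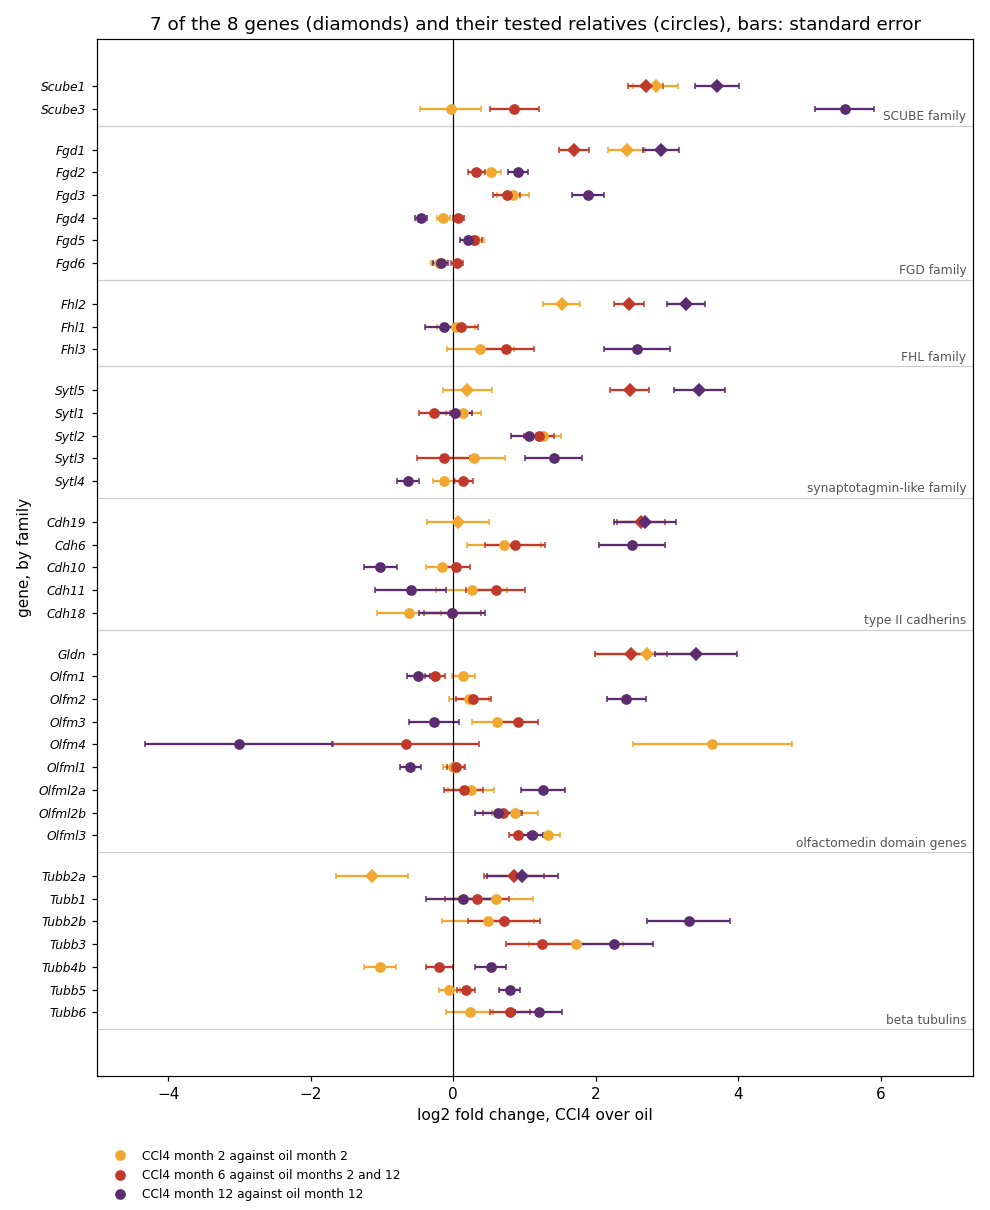
Log2 fold changes over oil at months 2, 6 and 12, with bars for the standard error, of 7 of the 8 genes (diamonds) and the tested members of their families (circles). Scube3 stands at 5.49 at month 12 and near 0 at month 2, and Tubb2b at 3.30 at month 12. With library totals alone the values lie higher, and some that lie below 0 at month 12, such as Fgd4 (0.09) and Olfm1 (0.03), are then above 0.

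Markers of cell types were counted in the same way, beside the shares of all genes given above. Of 10 Schwann cell markers 5 passed the filter; 1 was called higher at month 6, none at months 2 and 12, and 1 lower at month 12. The defining factor Sox10 had 3, 4 and 1 counts over the 6 CCl4 libraries of months 2, 6 and 12, 6 and 5 over those of month 2 and 12 oil, and 5 at month 0, and Foxd3 was at 0 in month 2 CCl4, month 12 CCl4 and month 12 oil. The summed Schwann cell level was 12.7 to 17.5 CPM in CCl4 livers and 8.58 to 14.6 CPM in oil livers at month 2, and 14.2 to 20.2 CPM in CCl4 livers and 7.80 to 26.8 CPM in oil livers at month 12. Month 6 CCl4 livers held 14.1 to 24.6 CPM. Other markers of the list had higher means in month 12 CCl4 livers than in month 12 oil livers: S100b had 0.423 and 0.145 CPM, Scn7a 5.50 and 3.54 CPM, and Mbp 4.20 and 2.96 CPM. Of these, S100b did not pass the filter, and Scn7a and Mbp were not called. With library totals alone 2, 3 and 4 of the 5 tested markers were higher at months 2, 6 and 12. Ngfr had 2.83 CPM in month 12 CCl4 livers and 4.18 CPM in month 12 oil livers, the 1 marker called lower, a call lost with library totals alone. The part of Schwann cells in the levels of Cdh19 and Gldn was not tested.

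All 6 macrophage markers rose at each month, and their summed level was 125 to 174 CPM in CCl4 livers and 59.8 to 114 CPM in oil livers at month 2. At month 12 it was 121 to 199 CPM in CCl4 livers and 60.0 to 98.7 CPM in oil livers. Stellate cell and fibroblast markers were called higher for 5 of 10 at months 2 and 6, and for 2 of 10 with 3 lower at month 12; with library totals alone 7, 8 and 6 were higher at months 2, 6 and 12 and none lower. Their summed levels were 815 to 1083 CPM in CCl4 livers and 512 to 777 CPM in oil livers at month 2. At month 12 they overlapped, with 621 to 795 CPM in CCl4 livers and 593 to 1143 CPM in oil livers. Of 7 cholangiocyte markers 3, 1 and 4 rose at months 2, 6 and 12, and their summed level at month 12 was 215 to 1094 CPM in CCl4 livers and 42.0 to 96.1 CPM in oil livers. Of 4 tested neutrophil markers 4, 4 and 1 rose at months 2, 6 and 12. Endothelial markers rose for 1, 2 and 3 of 5, with 1 lower at month 12, and with library totals alone for 4 at each month with none lower. Of 4 tested intestinal markers 2 rose at month 2, and 1 rose and 1 fell at month 12; of 4 erythroid markers 1 rose and 1 fell at month 12, the fall being lost with library totals alone. Hepatocyte markers were called lower for 1, 1 and 2 of 4 at months 2, 6 and 12. With library totals alone 1 was called lower, at month 12, and 1 was called higher at each of months 6 and 12. No mesothelial, pancreatic or smooth muscle marker was called at any of the 3 months, though with library totals alone 1 mesothelial marker was higher at months 2 and 6 and 1 smooth muscle marker at month 12. The part of these cells in the levels of the 8 genes was not tested.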

How the data were processed

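Whole-liver RNA of 36 mice in 6 groups was sequenced as stranded, paired-end libraries after removal of ribosomal RNA, per the labels' protocols. The authors deposited unnormalized whole-number counts by gene symbol, from reads mapped with Biojupies to mm10 per the labels; edgeR 3.30.3 and limma 3.44.3 are named in the submitters' processing notes. The gene annotation, the counter and its strand setting are not given in the sources used here. Groups were read from the sample titles.

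Genes were filtered with filterByExpr (15338 of 32544 kept), scaled by TMM (factors 0.757 to 1.33) and tested in 1 edgeR 4.0.16 quasi-likelihood fit of the 36 libraries without an intercept (R 4.3.3), with Benjamini-Hochberg adjustment over all tested genes and calls below 0.05. CPM values use the scaled library sizes. Fold changes are log2 with standard errors from the fit. Alternatives were RLE size factors, library totals alone, 2 other filters, a replicate block, DESeq2 1.42.0, limma-voom 3.58.1, fits of the compared groups only, other oil references at month 6 and fits without single or 4 libraries. The code was tested on simulated data.

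The 8 genes, the gene and marker lists, the 4 comparisons and the alternatives were chosen with earlier results of these data known. Named beside the 8 genes are the 2 genes most alike to each, from outside the 8 and with a mean of at least 1 CPM. Also named are the called members of each list (at most 3 per direction and month) and family relatives. Positions are from GENCODE vM21 and promoters from RefSeq, both on mm10 (GRCm38.p6); low counts limit the precision of low levels. A few genes that these rules would name are not reported here. The reads themselves were not analysed here.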

Additional observations from a re-analysis of the deposited data

Results flagged for a closer look

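In 7 of the 48 sets of 6 mice formed by the 8 genes and 6 groups, 1 mouse stood apart from the other 5 by a Dixon test at the 95% level. For normally spread values that happens in about 1 in 20 sets. Here CPM were used without a log scale, all 7 mice were the highest of their set, and the sets share mice. The 7 are thus not read as an excess. For Scube1 it was month 12 oil replicate 3 with 0.68 CPM, where the next mouse had 0.405 CPM. For Tcf24 it was month 0 control replicate 5 with 3.33 CPM, where the next had 1.13 CPM; this control also had the highest cholangiocyte marker sum of its group, 415 CPM. Gldn had a high mouse in both oil groups: month 2 oil replicate 6 with 0.543 CPM (next 0.220 CPM) and month 12 oil replicate 3 with 6.76 CPM (next 1.97 CPM). Without month 12 oil replicate 3, the month 12 log2 fold change of Gldn was 4.42 in place of 3.40. For Cdh19 it was month 12 oil replicate 2 with 0.99 CPM (next 0.410 CPM). Tubb2a had a high CCl4 mouse at month 2, replicate 1 with 49.3 CPM (next 22.5 CPM), and at month 12, replicate 2 with 337 CPM (next 198 CPM). Month 2 CCl4 replicate 1 also held the highest erythroid and neutrophil marker sums of its group, 1903 and 201 CPM. The part of other cells in these values was not tested.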

How the results depend on the processing

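Of 736 alternative values of the 8 genes, 730 were counted as unchanged, and none reversed a call. At month 12, against oil or month 0, unchanged meant the same direction and the same side of the threshold. At months 2 and 6 it meant a shift smaller than the SD of log2 CPM in the CCl4 group, whatever the sign. The changes of sign of Cdh19 and Sytl5 at month 2 are therefore among the 730. Tubb2a passed the test at month 12 with library totals alone and in the fit of the compared groups only, and against month 0 with library totals alone (1.23, adjusted p = 0.0301). Fgd1 at month 2 was 2.62 with library totals alone, and Gldn at month 6 moved with the oil group as given above. Counts over all genes moved more. At month 2, 1591 genes were called; library totals alone gave 3339 (3160 higher, 179 lower, against 1073 and 518), and leaving out replicate 2 of both oil groups (months 2 and 12) together with replicates 1 and 6 of month 2 CCl4, which an earlier look had set apart for transcripts of other tissues or blood, gave 884 (the libraries with the highest pancreatic sums, month 2 CCl4 replicate 5 with 17701 CPM and month 12 oil replicate 4 with 13853 CPM, were kept). At month 6, 1746 were called; library totals alone gave 9061 (8884 higher, 177 lower), and month 12 oil alone as reference gave 1115. At month 12, 7536 were called, and library totals alone gave 10923 (10331 higher, 592 lower, against 3975 and 3561). Leaving out single libraries gave 1102 to 1753 calls at month 2, 1049 (without month 6 CCl4 replicate 2) to 2376 at month 6, 7132 to 7831 at month 12 and 7844 to 8204 at month 12 against month 0. With the replicate number as a block the calls were 1477, 1652, 7482 and 8124. Same-numbered mice share only a number: their deviations correlated with a median r of -0.03 (range -0.46 to 0.47), and 3 of 36 libraries were most alike to their own number. Among genes of the lists, RLE size factors lost the calls of Unc13d, a RAB27 partner, at month 6 (adjusted p = 0.0517 by edgeR) and of Tubb4b at month 12, and gained those of Ankrd1 and Tuba1c at month 2, Spast at month 6 and Lrat at month 12, all 4 lower. Low levels limit the oil and month 0 values, where single libraries held as few as 1 count (Gldn) or 2 counts (Scube1, Tcf24, Cdh19).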
